A study of Danio rerio with 18 samples.

Results

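Overexpression of the ligand gene fgf3 was compared with control in the lateral line primordium of the zebrafish (Danio rerio), a cohesive group of epithelial cells that crawls along the flank and deposits the sensory organs called neuromasts. The comparison holds 12 of the 18 arrays of the series, the 6 titled with FGF overexpression and the 6 titled untreated control. Control embryos, although titled untreated, were bathed in RU486 at 10 µM with DMSO at 0.1%, and their transgenes were cldnb:lynGFP and cxcr4b:nls-tdTomato, which mark the primordium. Overexpressing embryos had the same bath and both of these transgenes, and in addition the driver cxcr4b:LexPR and its target lexOP:Fgf3-GFP. The driver is a transcription factor that RU486 switches on, and it is made wherever the cxcr4b promoter is active. No group carried the driver without its target, so Fgf3 and the extra transgenes cannot be told apart. The remaining 6 arrays came from embryos with the control transgenes and bath plus SU5402 at 1 µM, which blocks FGF receptor kinase activity. All embryos were under 3 days old. The sources used here do not say whether a sample pooled embryos or how the cells were isolated.

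FGF ligands bind receptor tyrosine kinases and act largely through the Ras-ERK cascade. That cascade switches on Ets transcription factors of the Pea3 family and, with them, its own inhibitors of the Sprouty, Spred and Dusp families. In the migrating primordium, Wnt signalling is active in the leading region, FGF signalling acts behind it where cells form rosettes and the first hair cell progenitors arise, and the pair restrain each other through secreted and intracellular inhibitors.

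Levels are log2 signals of probe sets, and a change is the difference of 2 group means on that scale, so that 1 unit is 2-fold. SE is the standard error of a change. A gene is said to have risen or fallen where the limma test, adjusted over all 75212 probe sets, gave p below 0.05. Each gene is represented by the probe set with its highest mean over the series. Levels of different genes are not comparable, since each probe set has its own brightness. A group is called dim for a gene if its mean did not exceed the median over every probe set (5.91 in control, 5.9 under FGF overexpression). A fold against a dim group is given as at least, because dim probe sets compress a change.

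Of 75212 probe sets, 3052 passed the test (4.06%), 1707 higher (2.27%) and 1345 lower (1.79%). Of 19260 named genes, 1135 passed the test (5.89%), 657 higher (3.41%) and 478 lower (2.48%) under FGF overexpression. Changes were mostly small. The median size was 0.61 among the rises and 0.53 among the falls, and 175 genes (0.909%) changed at least 2-fold, 109 up (0.566%) and 66 down (0.343%). For 967 genes (5.02%) all 6 overexpressing arrays lay on one side of all 6 control arrays, above in 2.92% and below in 2.1% of genes. The first principal component placed the overexpressing arrays at 47.7 to 69.3 and the control arrays at -0.2 to 19.2. On the second, control arrays 5 and 6 stood apart at -72.6 and -63.9, below the other 4 control arrays (-30.0 to 22.5). Overexpressing arrays 4 to 6 (9.5, -1.2 and -11.8) also lay below overexpressing arrays 1 to 3 (32.9 to 47.5). The same held for SU5402 arrays 4 to 6 (-31.4 to 8.4) against 1 to 3 (21.5 to 33), and the cause was not tested. Without control arrays 5 and 6, 860 genes passed, 508 higher and 352 lower. In bulk samples such as these, fewer cells of a type and less RNA per cell cannot be told apart.

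Of 9 measured primordium markers 3 passed the test, a larger share than the 5.89% of all genes. The reporter genes were not among the 3. The tight junction gene cldnb, whose promoter drives one reporter, had mean levels of 11.90 in control and 11.93 under FGF overexpression (change 0.03, adjusted p = 0.88). The chemokine receptor gene cxcr4b, whose promoter drives the other reporter and the driver, was at 10.65 and 11.01 (change 0.36, SE 0.14, adjusted p = 0.195). Of the other markers lef1 (-1.39, adjusted p = 1.2e-08) and ackr3b (-0.84, adjusted p = 0.00149) fell and prox1a rose (0.33, adjusted p = 0.0241), while epcam, eya1, atoh1a and cdh1 did not pass. The mean log2 level of the 9 measured markers on each array ran from 10.31 to 10.78 in control and from 10.34 to 10.59 under FGF overexpression. Markers of skin (krt4, at 12.09 and 12.08) and skeletal muscle (actc1b, at 13.09 and 13.03) were bright in both groups, so RNA of such cells may have been present in the samples.

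fgf3 itself checks the labels. Its level lay between 6.30 and 7.60 on the control arrays, with a median of 7.20, and between 12.22 and 12.59 on the overexpressing arrays, with a median of 12.36. All 6 overexpressing arrays stood far above all 6 control arrays, and control array 5 was the lowest. The rise was 38.5-fold (change 5.26, SE 0.17, adjusted p = 1.64e-12). The array may read RNA of the transgene and of the native gene together, so the rise is not that of the native gene alone. On the SU5402 arrays, which had no Fgf3 transgene, fgf3 also lay above every control array, at 8.71 to 9.43 (median 9.12). Among the other 23 measured FGF ligand genes none rose in the limma test, 1 of them at an unadjusted p under 0.05, and 3 fell.

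Those 3 were fgf10a, fgf10b and fgf6a. fgf10a, a ligand gene of the leading region of the primordium, lay at 8.80 to 9.48 in control (median 9.26) and at 7.51 to 7.86 under FGF overexpression (median 7.68). It fell 2.93-fold (change -1.55, SE 0.10, adjusted p = 1.66e-08), and the ranges did not overlap. Its paralog fgf10b fell from 5.81 to 6.66 (median 6.49) to 4.76 to 5.43 (median 4.96), a change of -1.33 (SE 0.15, adjusted p = 1.14e-05, at least 2.51-fold). fgf6a fell from a range of 6.69 to 7.27 to a range of 5.65 to 6.32 (change -1.08, SE 0.14, adjusted p = 0.000105). The ligand gene fgf24 had a change of 0.78 (SE 0.23, adjusted p = 0.068). It passed without control array 5 (0.96, adjusted p = 0.0098) and without FGF overexpression array 1 (0.93, adjusted p = 0.0235). For 12 of the 24 ligand genes, fgf4, fgf5, fgf6b, fgf7, fgf8a, fgf8b, fgf16, fgf17, fgf19, fgf20a, fgf20b and fgf22, both groups were dim. With fgf3 counted, 16.7% of the 24 passed, against 5.89% of all genes.

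Of 23 genes for FGF receptors and their modulators, 2 rose and 5 fell (30.4%, against 5.89% of all genes). The receptor gene fgfr1b fell from 9.55 to 9.95 in control to 8.81 to 9.13 (change -0.71, SE 0.10, adjusted p = 0.00014), whereas its paralog fgfr1a was at a change of 0.27 (SE 0.09, adjusted p = 0.106), past the threshold only without control array 1 (0.32, adjusted p = 0.045). The anosmin genes anos1a and anos1b, which encode matrix proteins that bind FGF receptors, fell, with changes of -1.02 (SE 0.10, adjusted p = 1.66e-06) and -1.26 (SE 0.14, adjusted p = 1.91e-05). Neither gene's ranges overlapped. The FGF carrier gene fgfbp1a rose (0.54, SE 0.12, adjusted p = 0.013), and flrt2, of a family of membrane proteins that interact with FGF receptors, fell (-0.52, SE 0.10, adjusted p = 0.00543), with a second, dimmer probe set that did not pass (-0.24, adjusted p = 0.388). The receptor genes fgfr4 (0.76, adjusted p = 0.0349) and fgfr2 (-0.38, adjusted p = 0.0367) passed narrowly, and leaving out any of 9 of the 12 arrays ended either call (adjusted p up to 0.0876 and 0.0872). The feedback receptor gene il17rd, also called sef, was at 0.24 (SE 0.07, adjusted p = 0.0872).

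Some of the feedback genes downstream of ERK rose, namely 2 of 4 Pea3 family genes, 5 of 7 Sprouty and Spred genes and 3 of 23 dual-specificity phosphatase genes, and none fell. Rises made up 50%, 71.4% and 13% of these lists, against 3.41% of all genes. The Pea3 family member etv4 lay at 8.74 to 9.61 in control (median 9.33) and at 10.82 to 11.13 under FGF overexpression (median 10.95). The ranges were more than 1 unit apart, and the rise was 3.31-fold (change 1.73, SE 0.14, adjusted p = 2.91e-07). Its relative etv5a rose from 9.05 to 9.28 to 9.33 to 9.78 (0.44, SE 0.11, adjusted p = 0.0272), a call lost without any 1 of 7 arrays (adjusted p up to 0.0706). For etv5b the change was 0.42 (SE 0.14, adjusted p = 0.108) and for etv1, which was dim in both groups, 0.06. In the limma test no Pea3 family gene fell, also at an unadjusted p under 0.05.

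Of the 7 Sprouty and Spred genes, which encode inhibitors of the Ras-ERK cascade, 5 rose and none fell, also at an unadjusted p. The list's median change was 0.76, against -0.01 over all genes. spry4 ran from 9.48 to 9.87 in control (median 9.68) and from 10.75 to 11.13 under FGF overexpression (median 10.95), a rise of 2.40-fold (change 1.26, SE 0.15, adjusted p = 2.81e-05). spry1 rose from 6.75 to 7.37 to 8.03 to 8.44 (1.02, SE 0.13, adjusted p = 8.7e-05). The other risers were spred2b (0.91, SE 0.12, adjusted p = 0.00011), spred2a (0.76, SE 0.09, adjusted p = 1.72e-05) and spry2 (0.72, SE 0.14, adjusted p = 0.00363). For all 5 the overexpressing arrays lay above every control array. spred1 was at 0.28 (SE 0.08, adjusted p = 0.0517) and passed without control array 1 (adjusted p = 0.0299) or FGF overexpression array 5 (adjusted p = 0.0186), and spred3 was at -0.19 (adjusted p = 0.486).

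Of 23 genes for dual-specificity phosphatases, 3 rose and none fell, also at an unadjusted p. dusp6, whose product dephosphorylates ERK, lay at 8.81 to 9.44 in control (median 9.30) and at 10.41 to 10.82 under FGF overexpression (median 10.63). It rose 2.59-fold (change 1.37, SE 0.11, adjusted p = 3.15e-07), and its second probe set rose as well (1.49, SE 0.14, adjusted p = 1.39e-06). dusp4 rose by less (0.53, SE 0.12, adjusted p = 0.0178), without control arrays 5 and 6 at adjusted p = 0.058. The call for dusp3a (0.79, adjusted p = 0.0281) was lost without any 1 of 7 arrays (adjusted p up to 0.0734). Among 26 immediate early genes, the rapid transcriptional response to growth factors, none rose in the limma test and 1 fell (3.85%, against 5.89% of all genes). It was the growth regulator gene myca (-0.58, SE 0.12, adjusted p = 0.00663). At an unadjusted p under 0.05, 1 of the 26 was higher and 6 were lower.

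**Figure D1:**
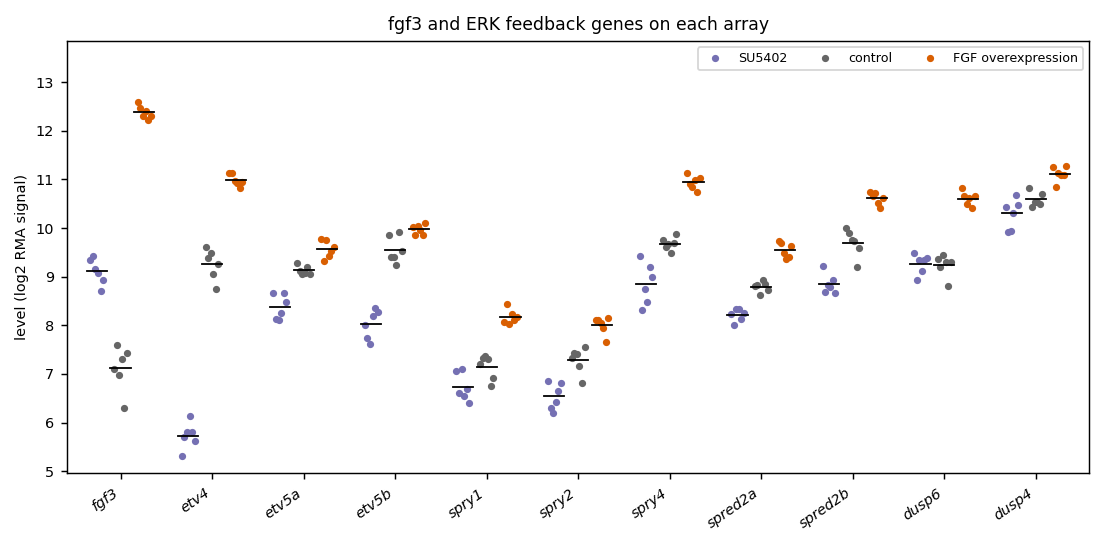
Level (log2 RMA signal, vertical axis) of fgf3 and 10 ERK feedback genes on each array, with a point per array and a line at the mean of the 6 arrays of a group, for SU5402, control and FGF overexpression. For etv4 the overexpressing arrays sit between 10.82 and 11.13, above the control arrays at 8.74 to 9.61, whereas the overexpressing and control arrays of etv5b meet.

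Outside the FGF pathway, the genes sost, hspa8b and oc90 had the largest rises of the genes named by rule. sost, which encodes the Wnt co-receptor antagonist sclerostin, had a tight range of 6.66 to 6.87 in control (median 6.72) and stood at 10.80 to 11.47 under FGF overexpression (median 11.19). No other gene but fgf3 had a larger measured rise (21.8-fold, change 4.45, SE 0.13, adjusted p = 2.85e-13). oc90, which encodes a matrix protein of the ear's otoliths, rose from 6.90 to 7.50 (median 7.02) to 9.71 to 10.99 (median 10.35), a change of 3.26 (SE 0.18, adjusted p = 1.86e-09), and its second, dimmer probe set rose by 1.25 (SE 0.18, adjusted p = 0.000188). The Hsp70 chaperone gene hspa8b was dim in control at 5.13 to 6.13 (median 5.39) and reached 8.2 to 9.78 (median 8.94), at least 10.7-fold higher (change 3.42, SE 0.26, adjusted p = 1.23e-07). Its constitutive relative hspa8 was at 12.63 and 12.62 (adjusted p = 0.955). Of the 23 heat shock genes measured, hspa8b was the single one to pass (4.35%, against 5.89% of all genes). With the replicate number as a block 3 passed.

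Further large rises, besides those of sostdc1a, ackr3a and dkk2, were of genes with varied roles. The homeobox gene gbx2 rose from 6.15 to 6.90 in control to 8.36 to 9.61 (change 2.38, SE 0.18, adjusted p = 1.37e-07). gdf7, of the BMP ligand family, rose from 6.04 to 6.69 to 8.25 to 9.09 (2.32, SE 0.15, adjusted p = 1.9e-08). The hormone gene stc1 (stanniocalcin) rose by 2.12 (SE 0.15, adjusted p = 5.92e-08) and the matrix gene emilin1b by 2.12 (SE 0.18, adjusted p = 5.91e-07). Smaller rises were those of the nuclear receptor gene rorb (1.83, SE 0.16), the EGF family ligand gene epgn (1.74, SE 0.14), the diacylglycerol kinase gene dgki (1.90, SE 0.11), the carboxypeptidase gene cpm (1.99, SE 0.12) and the potassium channel gene kcnn1b (1.76, SE 0.14), with adjusted p-values between 3.26e-09 and 5.77e-07. The adhesion protein gene amigo1 rose by 1.83 (SE 0.17) and the glycosyltransferase gene b3galt10.1 by 1.76 (SE 0.24, adjusted p = 0.00013). tuft1b (at least 3.67-fold), the neurohormone gene gnrh2 (at least 3.62-fold) and gfra1a, a co-receptor gene for GDNF family ligands (at least 3.50-fold), started from dim control levels. For gnrh2 the overexpressing arrays were widely spread, from 6.55 to 8.94, while the control arrays ran from 5.27 to 5.58.

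The largest falls were those of tbx1 and hist1h2a11. tbx1, a T-box transcription factor gene of the ear and pharynx, lay at 9.37 to 9.87 in control (median 9.60) and at 7.07 to 7.74 under FGF overexpression (median 7.22), a fall of 4.96-fold (change -2.31, SE 0.14, adjusted p = 1.01e-08). The histone gene hist1h2a11 fell by as much but with more spread, from 8.95 to 10.50 to 6.65 to 8.02 (-2.31, SE 0.35, adjusted p = 0.000359). It belongs to a multigene family whose near-identical members can share probes, so its identity is uncertain. The atypical cadherin gene fat1b fell from 8.97 to 9.49 to 7.01 to 7.54 (-2.0, SE 0.11, adjusted p = 2.03e-09) and the protocadherin gene pcdh12 from 9.65 to 10.37 to 7.79 to 8.38 (-1.91, SE 0.13, adjusted p = 2.22e-08).

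Of the other large falls, 4 were of genes for Wnt receptors, their transducers and planar cell polarity proteins, grouped here after their values were seen. ror1, a Wnt receptor gene, fell (-1.68, SE 0.13, adjusted p = 1.11e-07). celsr1b and vangl1, which encode core planar cell polarity membrane proteins, fell, with changes of -1.63 (SE 0.09, adjusted p = 1.94e-09) and -1.40 (SE 0.11, adjusted p = 1.13e-07). dvl1b, a Dishevelled gene, fell (-1.54, SE 0.15, adjusted p = 3.05e-06). In each of these 4 genes every overexpressing array was below every control array, which entry among the 25 largest falls required. Further genes for matrix and secreted proteins among the 25 largest falls, besides sfrp2, wnt2 and fgf10a, were fam20cb (-1.58), smoc2 (-1.54), edn1 (endothelin, -1.51), thbs1b (thrombospondin, -1.49) and kera (keratocan, -1.40). ggact.3 (at least 3.91-fold), lrrc4ca (at least 3.53-fold), ankrd1a (at least 2.72-fold), cdh10b (at least 2.65-fold) and pcgf5a (at least 2.59-fold) fell to dim levels. The transcription factor gene bcl11ba (-1.41) and dlk2 (-1.38), of the Delta-like family, completed the 25 together with sfrp2, wnt2, cyp26a1, fgf10a and lef1.

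**Figure D2:**
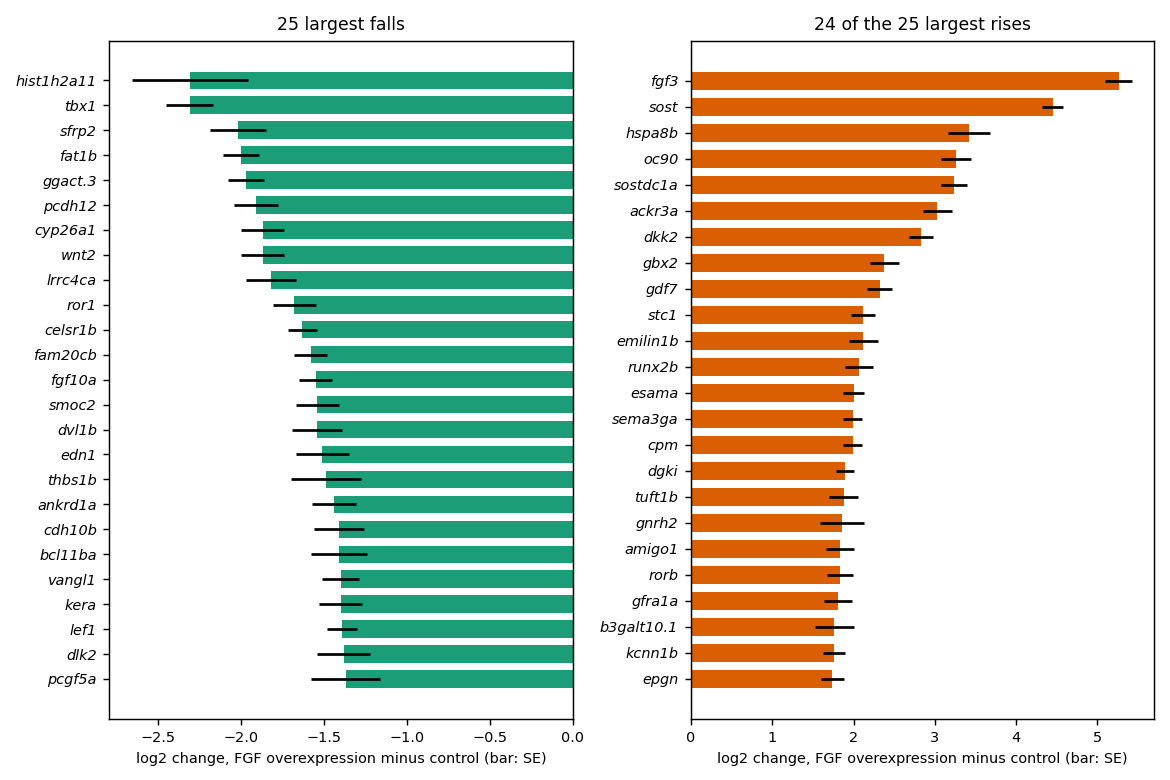
The 25 largest falls (left) and 24 of the 25 largest rises (right) among named genes that passed the test without overlap between the 6 FGF overexpression and 6 control arrays, as log2 change on the horizontal axis, with a bar for the SE of the fit. fgf3 (5.26) and sost (4.45) lead the rises, and hist1h2a11 and tbx1 (both -2.31) the falls.

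Secreted antagonists of Wnt and BMP went both ways. Of 27 measured, 5 rose and 5 fell (37%, against 5.89% of all genes). The largest rise after fgf3, that of sost, was among them. sostdc1a, of the sclerostin-related family, rose from 5.69 to 6.55 in control (median 6.20) to 9.10 to 9.59 (median 9.40), which is 9.36-fold (change 3.23, SE 0.16, adjusted p = 3.81e-10). dkk2, a Dickkopf gene whose product binds Wnt co-receptors, rose from 7.86 to 8.74 (median 8.34) to 10.88 to 11.30 (median 11.18), 7.09-fold (2.83, SE 0.15, adjusted p = 8.92e-10). With sost, these 3 stood in separate ranges by over 2 units. dkk1a (0.95, SE 0.12, adjusted p = 6.29e-05) and the BMP pseudoreceptor gene bambia (0.66, SE 0.16, adjusted p = 0.0205) rose too. The call for bambia was lost without control array 2 or FGF overexpression array 3 (adjusted p up to 0.0543).

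The antagonists that fell were the Frizzled-related genes sfrp1a and sfrp2, the Wnt inhibitory factor gene wif1, sostdc1b and notum1a, whose product removes the lipid of Wnt proteins. sfrp2 ran from 9.42 to 10.23 in control (median 9.94) and from 7.58 to 8.62 under FGF overexpression (median 7.76), a fall of 4.05-fold (change -2.02, SE 0.17, adjusted p = 3.34e-07). sfrp1a fell from 10.31 to 10.68 to 8.90 to 9.35 (-1.27, SE 0.09, adjusted p = 3.05e-08) and wif1 from 9.01 to 9.97 to 8.03 to 8.5 (-1.20, SE 0.13, adjusted p = 7.92e-06). sostdc1b fell (-1.07, SE 0.16, adjusted p = 0.000396), as did notum1a (-0.90, SE 0.15, adjusted p = 0.00086). The ranges met for notum1a alone of these 5.

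Of 21 Wnt transducers and feedback genes, 1 rose and 7 fell (38.1%, against 5.89% of all genes), with a median change of -0.27. lef1, the Wnt transcription factor gene of the leading region, lay at 9.82 to 10.18 in control (median 9.91) and at 8.29 to 8.66 under FGF overexpression (median 8.58). It fell 2.63-fold (change -1.39, SE 0.09, adjusted p = 1.2e-08). The other members that fell were nkd1 (-0.69, SE 0.14, adjusted p = 0.00515), sp5a (-0.58, adjusted p = 0.026), tcf7l2 (-0.54, SE 0.10, adjusted p = 0.00323), kremen1 (-0.50, SE 0.11, adjusted p = 0.00983), axin2 (-0.42, SE 0.09, adjusted p = 0.0104) and rspo3 (-0.38, adjusted p = 0.0416). nkd1 and axin2 are inducible inhibitors of the pathway, sp5a is a target gene, kremen1 encodes a Dickkopf receptor and rspo3 an R-spondin that amplifies Wnt signals. tcf7, a relative of lef1, rose (0.50, SE 0.10, adjusted p = 0.00707). The overexpressing and control arrays overlapped for tcf7 and for every fall of this list but those of lef1 and tcf7l2. The calls for sp5a and rspo3 were lost without any 1 of 5 and 10 arrays (adjusted p up to 0.0627 and 0.103), and those for axin2 and tcf7 without control arrays 5 and 6 together (adjusted p = 0.0584 and 0.0537).

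Among 36 Wnt ligand and Frizzled receptor genes 4 rose and 6 fell (27.8%, against 5.89% of all genes). wnt2 fell from 7.77 to 8.52 in control (median 8.35) to 6.07 to 6.63 (median 6.40), 3.65-fold (change -1.87, SE 0.13, adjusted p = 3.09e-08). wnt3 fell from 6.25 to 7.10 to 5.24 to 5.81 (at least 2.37-fold, -1.25, SE 0.13, adjusted p = 5.78e-06), and wnt9a (-1.04), wnt10a (-0.90), wnt6b (-0.89) and wnt4 (-0.54) fell with adjusted p-values of 6.48e-05 to 0.00116. The receptor gene fzd8a rose from 8.32 to 9.23 (median 8.75) to 10.12 to 10.62 (median 10.38), 3.16-fold (1.66, SE 0.12, adjusted p = 9.14e-08). fzd7b (0.63, SE 0.11, adjusted p = 0.00128) rose as well. The ligand genes that rose were wnt11 (1.24, SE 0.14, adjusted p = 1.38e-05) and wnt5a (0.73, SE 0.15, adjusted p = 0.00636), both best known for signalling that does not run through beta-catenin.

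**Figure D3:**
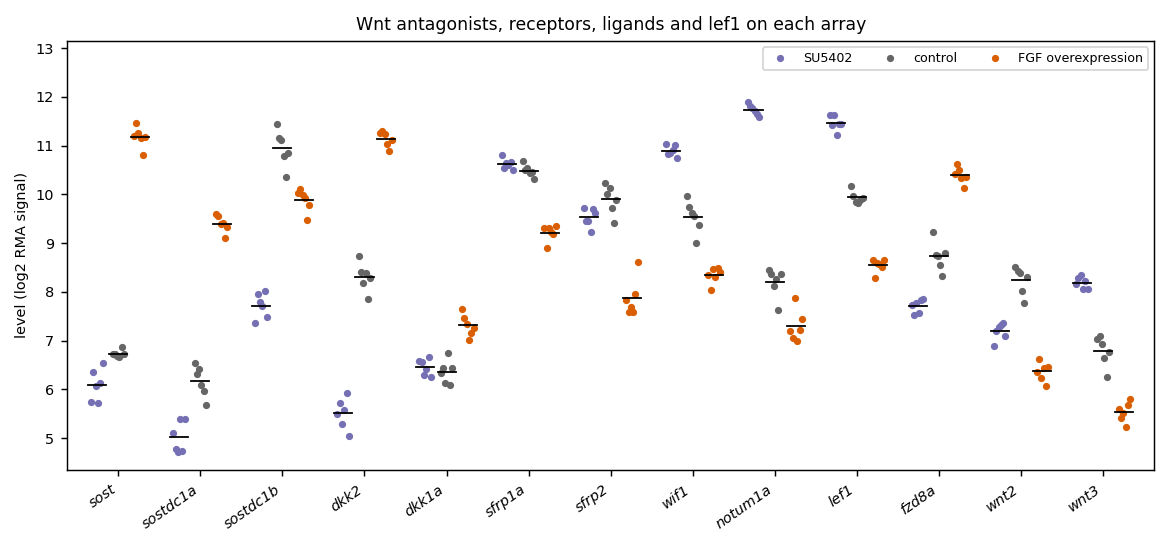
Level (log2 RMA signal, vertical axis) of 13 secreted antagonist, Wnt ligand, receptor and transcription factor genes on each array, with a point per array and a line at the mean of the 6 arrays of a group. sost, sostdc1a, dkk2, dkk1a and fzd8a sit higher in the FGF overexpression arrays than in every control array, and sfrp1a, sfrp2, wif1, sostdc1b, lef1, wnt2 and wnt3 lower.

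Of 12 genes of chemokine signalling and collective migration, 3 rose and 1 fell (33.3%, against 5.89% of all genes). Primordium migration runs on the chemokine receptor Cxcr4b in front and on Ackr3 receptors, which take up the chemokine, behind. ackr3a rose from 6.65 to 7.04 in control (median 6.84) to 9.34 to 10.25 (median 9.89), 8.16-fold (change 3.03, SE 0.18, adjusted p = 4.85e-09). ackr3b fell from a median of 11.46 in control (highest array 11.74) to 10.32 to 10.71 (median 10.61), below every control array, 1.79-fold (-0.84, SE 0.15, adjusted p = 0.00149). The receptor gene cxcr4a rose (0.73, SE 0.12, adjusted p = 0.000992), and the transcription factor gene prox1a rose by 0.33 (adjusted p = 0.0241), a call lost without control array 4 or 5 or FGF overexpression array 1 or 3 (adjusted p up to 0.0612).

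The genes for Notch ligands and the glycosyltransferases that act on Notch included 3 rises and 2 falls among 12. Their share of calls was 41.7%, against 5.89% of all genes. The ligand gene dlb rose from 8.28 to 8.67 in control to 9.34 to 9.84 (change 1.08, SE 0.18, adjusted p = 0.000808). The fringe genes mfng and lfng, whose products add sugars to Notch receptors, rose by 1.08 (SE 0.14, adjusted p = 6.88e-05) and 0.88 (SE 0.19, adjusted p = 0.0104). The Jagged genes jag1b (-0.59, SE 0.10, adjusted p = 0.000846) and jag2b (-0.45, SE 0.08, adjusted p = 0.00122) fell, so the Delta ligand gene and the Jagged ligand genes that passed moved in opposite directions. Of 25 receptor and Her/Hey target genes 4 rose and 2 fell (24%, against 5.89% of all genes). The receptor gene notch2 fell (-0.53, SE 0.07, adjusted p = 9.18e-05). Each of the other 5 calls, hes6 (0.36), hey2 (0.74), notch1a (0.38), hes2.1 (0.47) and her8.2 (-0.64, dim in both groups), had an adjusted p of 0.0309 to 0.0493 and was lost without any 1 of 6 to 10 arrays, and 1 member passed without control arrays 5 and 6. The 4 further probe sets of notch1a did not pass (0.21 to 0.31).

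Of 27 genes of the hair cell and support cell lineages 7 rose (25.9%, against 3.41% of all genes). None fell in the limma test or at an unadjusted p under 0.05. pvalb8, which encodes a calcium-binding protein of hair cells, lay at 10.84 to 11.09 in control (median 11.03) and at 11.68 to 12.06 under FGF overexpression (median 11.88), 1.83-fold higher (change 0.87, SE 0.09, adjusted p = 5.23e-06). The transcription factor gene sox3 rose from 7.19 to 7.53 to 8.04 to 8.68 (1.08, SE 0.12, adjusted p = 1.24e-05). sox4a (0.83, SE 0.10, adjusted p = 3.16e-05), six2a (1.09, SE 0.20, adjusted p = 0.00226), prdm1a (0.70, SE 0.09, adjusted p = 0.000112) and otofa (0.72, SE 0.14, adjusted p = 0.00505), which encodes the synaptic protein otoferlin, followed. The call for insm1b (0.47, adjusted p = 0.0296) was lost without any 1 of 6 arrays (adjusted p up to 0.0692). atoh1a, the transcription factor gene that hair cells require, ran from 7.65 to 8.39 in control and from 8.02 to 8.74 under FGF overexpression (0.33, SE 0.14, adjusted p = 0.255). Its ranges overlapped.

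Of 40 placode and lateral line identity factors, 5 rose and 4 fell (22.5%, against 5.89% of all genes). Beside gbx2, runx2b rose from 6.49 to 7.83 in control (median 7.19) to 9.15 to 9.40 (median 9.22), 4.19-fold (change 2.07, SE 0.17, adjusted p = 3.71e-07), while its paralog runx2a fell from 8.0 to 8.78 to 7.0 to 7.72 (-1.11, SE 0.14, adjusted p = 6.06e-05). The eyes-absent genes split as well, with eya4 higher (0.56, SE 0.10, adjusted p = 0.00273) and eya2 lower (-0.43, SE 0.10, adjusted p = 0.0132), and eya1 at 0.02 (adjusted p = 0.951). prdm1a and six2a belong to this list too. The fall of osr1 (-0.47, adjusted p = 0.0347) was lost without any 1 of 8 arrays (adjusted p up to 0.0856).

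Rosettes form by apical constriction, which needs actomyosin and apical junctions. Of 24 genes for these, 4 fell (16.7%, against 2.48% of all genes). None rose in the limma test (2 at an unadjusted p under 0.05). amotl2b, an angiomotin family gene, fell from 8.72 to 9.35 in control to 7.28 to 8.18 (change -1.18, SE 0.17, adjusted p = 0.000204). Its relative AMOTL1 (-0.49, SE 0.11, adjusted p = 0.011), the kinase gene rock2b (-0.45, SE 0.07, adjusted p = 0.000571) and the non-muscle myosin gene myh9b (-0.32, SE 0.06, adjusted p = 0.00386) fell by less, each without overlap. Tight junction and polarity genes held 1 riser of 33, llgl2 (0.39, SE 0.07, adjusted p = 0.00183), and no fall (3 at an unadjusted p), a share of 3.03% against 5.89% of all genes. Among 28 cadherin and adherens junction genes, 2 rose and 1 fell (10.7%, against 5.89% of all genes). nectin1b rose from 7.79 to 8.58 to 9.69 to 10.14 (1.69, SE 0.14, adjusted p = 2.27e-07, with 1.71 on its second probe set), jupb rose (0.64, SE 0.11, adjusted p = 0.00144) and fat1b fell. The epithelial adhesion genes cdh1 (11.35 and 11.40, adjusted p = 0.842) and epcam (11.88 and 11.87, adjusted p = 0.994) were level.

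Integrin genes changed in both directions. itga5 rose from 6.65 to 7.44 in control to 8.21 to 8.48 (change 1.34, SE 0.13, adjusted p = 2.77e-06), and itga8 rose at least 2.72-fold (1.44, SE 0.15, adjusted p = 4.83e-06). itgb6 fell from 8.31 to 8.74 to 7.18 to 7.50 (-1.18, SE 0.09, adjusted p = 2.07e-07), itga3b fell from 9.49 to 9.72 to 8.43 to 8.73 (-0.97, SE 0.09, adjusted p = 1.08e-06) and itga6b fell (-0.70, SE 0.09, adjusted p = 7.74e-05). itga5 and itga8 encode receptor subunits for fibronectin and related matrix proteins, itga3b and itga6b encode laminin receptor subunits, and itgb6 encodes a beta subunit. In the list of 33 basement membrane and integrin genes, 3 rose and 5 fell in all (24.2%, against 5.89% of all genes). The others were the agrin gene agrn (0.37, SE 0.06, adjusted p = 0.00124), whose second probe set did not pass (0.18), and the fibronectin genes fn1a (-0.61, adjusted p = 0.0189) and fn1b (-0.62, adjusted p = 0.0499). The fn1a call was lost without control array 3 or FGF overexpression array 2 (adjusted p up to 0.0517) and the fn1b call without any 1 of 10 arrays (adjusted p up to 0.118).

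Heparan sulfate chains on cell surface proteins are needed for FGF to bind its receptors. Of 33 genes for glypicans, syndecans and heparan sulfate enzymes 1 rose and 4 fell, a larger share than the 5.89% of all genes. At an unadjusted p under 0.05 in the limma test, 6 of the 33 were higher and 10 were lower. sulf1, which encodes a 6-O-sulfatase, fell from 7.72 to 8.32 in control to 6.21 to 7.21 (change -1.29, SE 0.18, adjusted p = 0.000124). The sulfotransferase genes ndst1a (-0.79, SE 0.11, adjusted p = 0.000169), hs6st1b (-0.53, SE 0.09, adjusted p = 0.00183) and hs3st3b1a (-0.60, adjusted p = 0.0213) fell, and the glypican gene gpc4 rose (0.68, SE 0.10, adjusted p = 0.000349). Leaving out control array 2 or 4 or FGF overexpression array 1 or 2 ended the call for hs3st3b1a (adjusted p up to 0.0577).

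BMP and TGF-beta signalling had 10 rises and 1 fall among 50 genes (22%, against 5.89% of all genes). Ligand genes rose beside gdf7, namely inhbb, which encodes an activin subunit (change 1.33, SE 0.14, adjusted p = 9.73e-06), and bmp2a (1.07, SE 0.14, adjusted p = 6.48e-05). The BMP target genes msx2a (at least 2.73-fold, 1.45, SE 0.19, adjusted p = 9.55e-05), msx2b (0.64, SE 0.14, adjusted p = 0.00848) and id2a (0.47, SE 0.10, adjusted p = 0.0129) and the transducer gene smad5 (0.43, SE 0.08, adjusted p = 0.00255) rose. The calls for tgfb1a (0.53), smad7 (0.32), tgfbr1a (0.40) and gdf10a (-0.49), with adjusted p-values of 0.0293 to 0.0446, were each lost without any 1 of 6 to 12 arrays.

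The retinoic acid genes held 2 rises and 3 falls among 22 (22.7%, against 5.89% of all genes). cyp26a1, whose enzyme breaks down retinoic acid, fell from 7.52 to 8.2 in control (median 7.90) to 5.72 to 6.35 (median 6.01), 3.65-fold (change -1.87, SE 0.13, adjusted p = 4.35e-08). cyp26b1, for an enzyme of the same function, rose by 0.80 (SE 0.09, adjusted p = 2.68e-05) with both groups dim. Of the retinal reductase genes, dhrs3a rose (1.07, SE 0.13, adjusted p = 5.12e-05) and dhrs3b fell (-0.85, SE 0.13, adjusted p = 0.000293). The receptor gene raraa fell (-0.84, SE 0.11, adjusted p = 0.000121). In the EGF list of 17, the ligand gene tgfa rose (0.94, SE 0.18, adjusted p = 0.00339) and the ligand gene hbegfb fell (-0.91, SE 0.13, adjusted p = 0.000321). These calls made up 11.8% of that list, against 5.89% of all genes, and epgn was not on it.

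Guidance ligands and receptors were among the lists with many calls, 10 higher and 14 lower of 68 (35.3%, against 5.89% of all genes). Semaphorin genes split, with sema3ga (1.99, SE 0.12, adjusted p = 5.43e-09), sema3d (0.91) and sema3ab (0.77) higher and sema3fa (-1.21, SE 0.11, adjusted p = 1.83e-06), sema5a (-0.84), sema5ba (-0.82), sema3gb (-0.70), sema3c (-0.62) and sema4ga (-0.52) lower. A second probe set of sema4ga did not pass (-0.36, adjusted p = 0.0704). sema3ga ran from 7.57 to 8.12 in control and from 9.63 to 9.95 under FGF overexpression, the widest gap of the list. The semaphorin co-receptor genes nrp2b (0.97, SE 0.16, adjusted p = 0.00101) and nrp1a (0.82, SE 0.15, adjusted p = 0.00313) rose and the plexin gene plxna2 fell (-0.46, SE 0.08, adjusted p = 0.00193). The Slit ligand gene slit2 rose (0.58, SE 0.11, adjusted p = 0.00343) while its receptor genes robo3 (-0.74, SE 0.08, adjusted p = 1.74e-05) and robo1 (-0.72, SE 0.09, adjusted p = 5.74e-05) fell. Of the Eph receptor genes, epha4b (-1.17), epha7 (-0.92) and epha3 (-0.71) fell, with adjusted p-values of 0.000173 to 0.000487, and ephb4b (0.45) rose. efna3b, an ephrin ligand gene, rose (0.84, SE 0.10, adjusted p = 1.86e-05). The calls for ephb4a (0.38), efnb3b (-0.38), sema4ga and the netrin gene NTN5 (0.55) were lost without any 1 of 9, 11, 7 and 1 arrays (for NTN5 FGF overexpression array 1, adjusted p = 0.0508), and that for efnb1 (-0.49) without control arrays 5 and 6 (adjusted p = 0.101).

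Among 32 matrix metalloprotease and inhibitor genes 5 rose (15.6%, against 3.41% of all genes), and none fell, also at an unadjusted p. mmp9, a gelatinase gene, rose from 6.95 to 7.40 in control to 7.93 to 9.05 (change 1.24, SE 0.16, adjusted p = 7.74e-05), and mmp15b, for a membrane-bound protease, from 8.67 to 8.90 to 9.30 to 9.56 (0.69, SE 0.09, adjusted p = 0.000121). adamts6 (at least 1.62-fold), adamts10 (0.47) and mmp13a (0.96) rose too, mmp13a at adjusted p = 0.0128, and at 0.0756 without control arrays 5 and 6. mmp9 and mmp13a are also the 2 leukocyte markers that rose of 28, and none of the leukocyte markers fell, also at an unadjusted p. The leukocyte list ran from 6.20 to 6.42 per array in control and from 6.25 to 6.58 under FGF overexpression, and its part in these 2 rises was not tested.

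Growth genes that passed were all lower. Of 49 cell cycle and DNA replication genes 5 fell (10.2%, against 2.48% of all genes). None rose in the limma test (5 at an unadjusted p under 0.05), and the median change was -0.08, against -0.01 over all genes. MKI67, the proliferation marker gene, fell from 9.82 to 10.25 in control to 9.60 to 9.83 (-0.40, SE 0.08, adjusted p = 0.00577), and so did the mitotic kinase gene aurkb (-0.44, SE 0.10, adjusted p = 0.0126). The falls of dut (-0.32), mcm3 (-0.61) and pcna (-0.24) were lost without any 1 of 6, 10 and 12 arrays. The replication clamp gene pcna thus kept its call in no fit with 11 of the compared arrays (adjusted p up to 0.115). Without control arrays 5 and 6, 3 members of this list passed. Of 43 ribosome biogenesis and MYC target genes 6 fell (14%, against 2.48% of all genes). None rose, also at an unadjusted p, where 21 were lower. The list's median change was -0.18. The nucleolar genes mybbp1a (-0.70, SE 0.09, adjusted p = 5.14e-05), npm1a (-0.53, SE 0.10, adjusted p = 0.00506), fbl (-0.39, SE 0.09, adjusted p = 0.0144) and bop1 (-0.38, SE 0.08, adjusted p = 0.0124) were among them with the pyrimidine synthesis gene cad (-0.48, SE 0.10, adjusted p = 0.00486), and tsr1 (-0.35) lost its call without any 1 of 7 arrays (adjusted p up to 0.0842).

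Stress and hormone lists held 2 of 35 (5.71%, unfolded protein response), 3 of 28 (10.7%, p53 targets and apoptosis) and 3 of 25 calls (12%, steroid receptors), against 5.89% over all genes. With the replicate number as a block the first had 5 calls and the p53 list 8. In the unfolded protein response list, atf6 (change 0.28) rose and eif2ak3 (-0.28) fell, both lost without any 1 of 8 or 9 arrays and both lost without control arrays 5 and 6. Of the p53 target and apoptosis genes, the pro-apoptotic genes baxb (0.52, SE 0.09, adjusted p = 0.00164) and bcl2l11 (0.52, SE 0.11, adjusted p = 0.00801) rose and the survival gene bcl2a fell (-0.35, adjusted p = 0.0269). The bcl2l11 call was lost without control arrays 5 and 6 (adjusted p = 0.0596) and the bcl2a call without any 1 of 6 arrays (adjusted p up to 0.0666). Among the steroid receptor and response genes, the mineralocorticoid receptor gene nr3c2 rose from 6.79 to 7.61 in control to 8.33 to 9.01 (1.45, SE 0.14, adjusted p = 3.23e-06), hsd11b2, whose enzyme inactivates cortisol, fell from 6.73 to 7.03 to 5.79 to 6.04 (-0.90, SE 0.08, adjusted p = 1.35e-06), and tsc22d3 rose by 0.33, a call lost without any 1 of 9 arrays (adjusted p up to 0.09). Both groups received RU486, which also binds steroid receptors.

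Lists of markers of other cell types the samples could hold were read in the same way. Calls made up 8.11% of the skin, 7.14% of the leukocyte and 7.14% of the neuron and glia markers. For the neural crest, pigment and mesenchyme markers the share was 6.52%, against 5.89% over all genes. None of 52 skeletal muscle, 16 erythroid or 31 pronephros and ionocyte markers passed the limma test, and at an unadjusted p under 0.05 there were 5, 1 and 0 falls and 0, 0 and 1 rises. With the replicate number as a block, 6 muscle markers fell. The muscle list had a median change of -0.22, and its level per array was 8.90 to 9.72 in control (median 9.48) and 8.88 to 9.63 under FGF overexpression (median 8.96). Skin and periderm markers held 3 falls of 37 and no rise (4 at an unadjusted p), with col17a1b, a hemidesmosome collagen gene, at -1.27 (SE 0.16, adjusted p = 5.21e-05), krt94 at -0.48 (SE 0.10, adjusted p = 0.00606) and grhl3 at -0.77 (SE 0.17, adjusted p = 0.0126, and 0.0513 without control arrays 5 and 6). The skin list ran from 8.58, on control array 1, to 9.25 in control and from 8.98 to 9.13 under FGF overexpression. The neuron and glia list (6.54 to 7.15 and 6.78 to 7.05 per array) and the neural crest, pigment and mesenchyme list (6.61 to 7.37 and 6.56 to 7.02) shared the rise of sox10 (0.66, SE 0.10, adjusted p = 0.000331), and sox9b rose (0.74, SE 0.15, adjusted p = 0.00512). The call for the neuronal gene snap25b (0.50, adjusted p = 0.0212) was lost without control array 1 or 3 or FGF overexpression array 2 (adjusted p up to 0.0545), and that for the fall of the collagen gene col12a1a (-0.39, adjusted p = 0.0257) without any 1 of 7 arrays (adjusted p up to 0.0687). Whether other cells had a part in the results above was not tested.

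The endothelium list had the largest share of calls among these, 5 rises and 1 fall of 33 (18.2%, against 5.89% over all genes). Its median change was -0.11, with 5 members higher and 5 lower at an unadjusted p under 0.05 in the limma test. esama, an adhesion gene first described in endothelium, rose from 7.77 to 8.38 in control (median 8.10) to 9.70 to 10.29 (median 10.06), 4.0-fold (change 2.0, SE 0.13, adjusted p = 1.38e-08). gata2b (1.68, SE 0.14, adjusted p = 2.72e-07), egfl7 (1.25, SE 0.14, adjusted p = 1.33e-05), the receptor gene kdr (0.80, SE 0.15, adjusted p = 0.0029) and she (0.51, SE 0.09, adjusted p = 0.00248) rose. kdrl, another vessel gene of the list, fell (at least 1.89-fold, -0.92, SE 0.16, adjusted p = 0.00191), and the vessel markers cdh5 (-0.35, adjusted p = 0.386) and fli1 (-0.39, adjusted p = 0.298), which were given outside the naming rule, did not pass. The list's level per array was 6.31 to 6.54 in control and 6.26 to 6.63 under FGF overexpression.

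**Figure D4:**
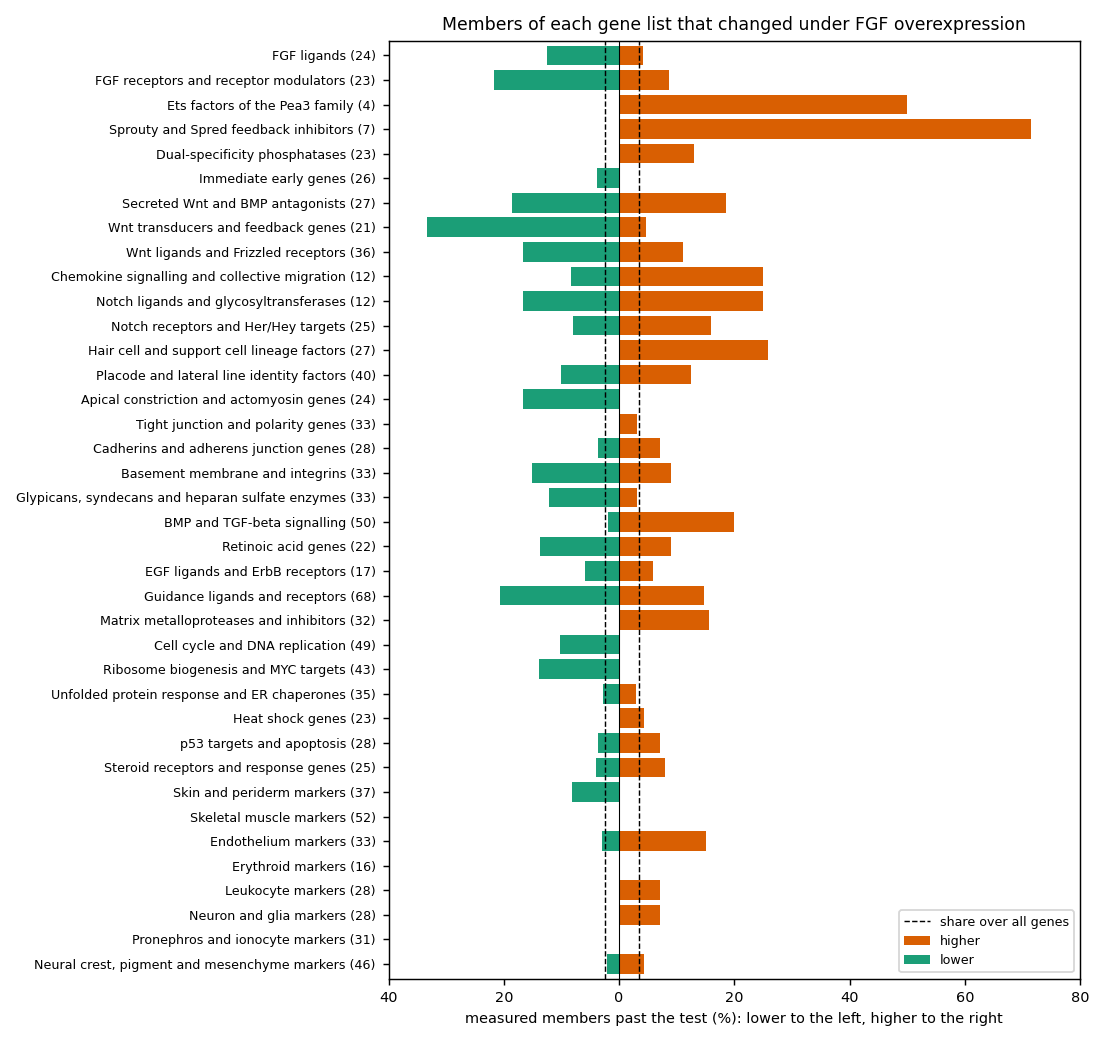
Share of the measured members of each of 38 gene lists that passed the test (horizontal axis, percent), with genes lower under FGF overexpression drawn to the left and higher to the right. The number measured stands in brackets, and dashed lines mark the shares over all genes, 2.48% lower and 3.41% higher. The Sprouty and Spred list has the largest share of rises, 5 of 7, and the muscle, erythroid and pronephros lists have no bar.

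Some pairs of duplicated or related genes moved apart under FGF overexpression and others together. Of 2477 pairs of symbols that differ only in a final a or b, 33 had both members called and 314 had 1. Over all genes, 5.89% were called. Of the 33 pairs, 13 were called in opposite directions. The larger part, 20, were called in the same one (as fgf10a and fgf10b, anos1a and anos1b, spred2a and spred2b). Among those that moved apart were ackr3a (change 3.03) and ackr3b (-0.84), sostdc1a (3.23) and sostdc1b (-1.07), and runx2b (2.07) and runx2a (-1.11), and also cyp26b1 (0.80) and cyp26a1 (-1.87), dhrs3a (1.07) and dhrs3b (-0.85), and sema3ga (1.99) and sema3gb (-0.70). The 6 pairs were picked after their values were seen, from pairs called in opposite directions. That all 12 changes passed the test was thus fixed by the choice. In none of the 12 did the overexpressing and control arrays overlap. This adds no separate support, since 792 of all 1135 called genes had no overlap either. Under SU5402 both members of the ackr3 and sostdc1 pairs fell, with changes of -1.51 for ackr3a, -1.72 for ackr3b, -1.15 for sostdc1a and -3.23 for sostdc1b (adjusted p between 2.09e-10 and 5.06e-05). runx2a rose (2.86, adjusted p = 1.65e-10) and runx2b fell (-1.0, adjusted p = 0.000607) there.

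**Figure D5:**
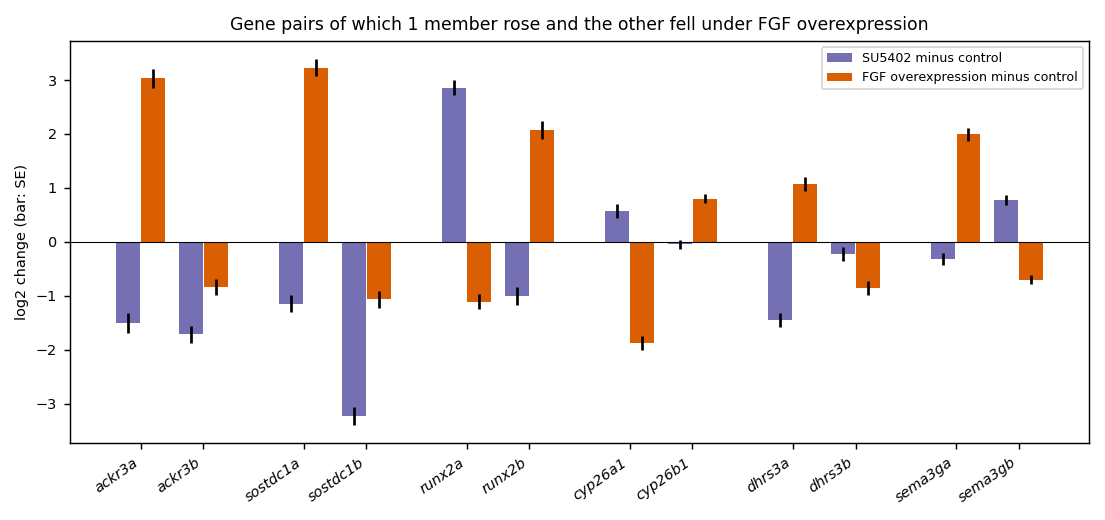
Log2 change (vertical axis) of 6 gene pairs under FGF overexpression and under SU5402, each against the same 6 control arrays, with a bar for the SE of the fit. In every pair one member is above 0 and the other below 0 under FGF overexpression, whereas both ackr3 genes and both sostdc1 genes are below 0 under SU5402.

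The changes under SU5402, which lowers FGF signalling, are given beside those under FGF overexpression. Against control, 14.7% of all genes passed under SU5402, 6.57% higher and 8.13% lower. Both comparisons share the control arrays, so the difference is tested directly between the overexpressing and SU5402 arrays, where 24.4% of all genes passed, 12.5% higher under FGF overexpression and 11.9% lower. etv4 stood at 1.73 under FGF overexpression and -3.52 under SU5402 (difference 5.25, adjusted p = 1.23e-14), and dkk2 at 2.83 and -2.81 (5.63, adjusted p = 9.05e-15). lef1 stood at -1.39 and 1.52 (-2.92, adjusted p = 7.23e-14), fgf10a at -1.55 and 1.56 (-3.11, adjusted p = 2.01e-13) and fam20cb at -1.58 and 1.44 (-3.01, adjusted p = 2.03e-13). In these 5 genes the changes under FGF overexpression and under SU5402 had opposite signs, each past its own test. The 5 are examples and not a count over all genes.

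Other members had unequal responses. sost rose by 4.45 under FGF overexpression and fell by 0.64 under SU5402 (adjusted p = 0.003), whereas dusp6 rose by 1.37 and was at 0.03 under SU5402 (adjusted p = 0.916, difference 1.34, adjusted p = 5.8e-08). oc90 (3.26 and -0.44), gbx2 (2.38 and -0.42) and gdf7 (2.32 and -0.18) passed under FGF overexpression and not under SU5402, and the overexpressing arrays differed from the SU5402 arrays in each (adjusted p up to 1.84e-09). sfrp1a (-1.27 and 0.14), itgb6 (-1.18 and -0.01) and celsr1b (-1.63 and -0.12) did the same on the falling side (adjusted p of the difference up to 2.91e-08). Control medians of sost (6.72), oc90 (7.02), gbx2 (6.39) and gdf7 (6.18) were not far above the median over all probe sets in control (5.91). Whether such levels limited the changes of these 4 genes under SU5402, where sost alone of them fell, was not tested. sostdc1a had a median of 6.20 in control and 4.94 under SU5402, but levels of different genes are not comparable.

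A further set was lower in both. tbx1 was at -2.31 under FGF overexpression and -1.57 under SU5402 (difference -0.74, adjusted p = 0.00115), and wnt2 at -1.87 and -1.04 (difference -0.82, adjusted p = 0.000121). For edn1 (-1.51 and -1.35), dvl1b (-1.54 and -1.30) and itga3b (-0.97 and -0.93) the difference between the overexpressing and SU5402 arrays did not pass (-0.16, -0.24 and -0.04, adjusted p = 0.568, 0.324 and 0.829). ackr3b (-0.84 and -1.72), sostdc1b (-1.07 and -3.23) and tcf7l2 (-0.54 and -2.09) were lower still under SU5402, with differences of 0.88, 2.16 and 1.55 (adjusted p up to 0.000229). inhbb (1.33 and 1.26) and tcf7 (0.50 and 1.33) rose in both, with differences of 0.07 (adjusted p = 0.821) and -0.83 (adjusted p = 1.03e-05).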

How the data were processed

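RNA of 18 samples labelled as biological replicates, 6 per group, was hybridised to Affymetrix arrays. The deposited values are log2 signals made by the authors with Affymetrix Power Tools and RMA, per the submitters' processing notes. The sources used here give no versions, genome build or annotation. The values ran from 1.20 to 13.88, array medians from 5.89 to 5.99, and they were used as deposited. Gene names came from the platform annotation. Of 75212 probe sets, 20806 have 1 symbol, 855 several and 53551 none. Of 1206 list symbols 1098 were found.

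limma 3.58.1 in R 4.3.3 was fitted over all 18 arrays with 1 mean per group, with a moderated two-sided test adjusted by Benjamini-Hochberg over all probe sets and no minimum fold. The fit was tested on simulated data. The number of arrays limits the precision, and a gene that did not pass may still differ. A p-value weighs a change of group means against the spread between arrays within the 3 groups. Genes, lists and tests were chosen with earlier results of these data known. Named genes are fgf3, the 25 largest rises and falls among calls without overlap (clone and predicted names left out, and 1 rise not reported here), all FGF ligand, receptor, Pea3, Sprouty and Spred genes, the 6 called members with the smallest p of every other list, 7 genes of interest, and cell type markers. All further called list members were named after their values were seen. Lists were described by counts, with no set test. Same-numbered arrays of the control and FGF overexpression groups had deviations correlated at 0.012 to 0.169, against a median of -0.012 for other numbers. These values cannot decide whether the numbers mark pairs. The labels name no pairs, so the main fit had no block, and counts with a block are given below.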

Additional observations from a re-analysis of the deposited data

Results flagged for a closer look

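In 110 groups of 6 arrays (55 genes in control and under FGF overexpression), 6 had 1 array whose gap to the nearest other array was, as a share of the group's range, over Dixon's critical value. This criterion marks about 5% of groups by chance. Control array 5 was such an array for sost (6.87, others 6.66 to 6.73), fgf10a (8.80, others 9.23 to 9.48) and cxcr4b (10.14, others 10.67 to 10.91). Control array 4 was highest for oc90 (7.50, others 6.90 to 7.12). Under FGF overexpression, array 6 was highest for sfrp2 (8.62, others 7.58 to 7.95) and array 5 lowest for ackr3b (10.32, others 10.58 to 10.71). Without control array 5 or any other single array, the calls for sost, fgf10a, oc90, sfrp2 and ackr3b were kept and cxcr4b did not pass. Control array 5 was the lowest control array in 111 of the 255 genes examined one by one and in 4235 of all 19260, where array 1 was lowest in 4332. Control array 1 was the highest in 108 of the 255 and in 4729 of all genes.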

How the results depend on the processing

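The number of genes that passed ranged from 890 to 1087 when single arrays were left out, the number of probe sets from 2427 to 2897 and the number of genes changed at least 2-fold from 165 to 191, against 1135, 3052 and 175. The 11 other settings gave 860 to 1457 genes, with 860 without control arrays 5 and 6, a setting chosen after seeing the data, where 783 of the 1135 calls (69%) were kept. No call turned its direction in any of the 23 settings. With the replicate block 747 genes were higher and 710 lower, 1457 in all, and 1079 calls were kept. In each direction 4 of 6 arrays correlated best with their own number, which is a hint from the data and not the design. List counts moved by over 1.5 times with the replicate block for the immediate early genes (4), tight junction (4), cell cycle (8), unfolded protein response (5), heat shock (3), p53 (8), skin (6), muscle (6) and neural crest (5) lists. With the 12 compared arrays alone the Notch receptor list had 3 calls and the unfolded protein response list 0. After array medians were made equal the cell cycle list had 3. Without control arrays 5 and 6 the Pea3 and leukocyte lists had 1 call each and the unfolded protein response list 0. The cause was not tested. Of 212 named genes with a call, 167 kept it in all settings and 45 lost it in at least 1. Of 43 without a call, 5 (fgf24, fgfr1a, il17rd, etv5b and spred1) passed in at least 1. Another background correction was not run, since scanner values were not used here. Without detection calls, the median level stood in for background, which limits changes of dim genes.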

Other observations

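Some changes were carried by genes known only as clone or predicted loci, which the naming rule passed over and which were picked here after their values were seen. si:dkey-4p15.5 had a mean level of 6.05 ± 0.39 (SD, n = 6) in control and 10.41 ± 0.48 under FGF overexpression, a rise of 20.5-fold (log2 change 4.36, SE 0.20, limma adjusted p = 1.91e-10) that only fgf3 and sost exceeded among the 19260 genes. Under SU5402 it fell (log2 change -0.85, adjusted p = 0.0098). LOC567816 was at 8.10 ± 0.69 in control and 5.93 ± 0.38 under FGF overexpression (log2 change -2.16, SE 0.28, limma adjusted p = 6.43e-05), and its change under SU5402 was -2.81 (adjusted p = 1.06e-06). In si:ch211-235f1.3 the change was -1.69 (SE 0.11, adjusted p = 1.2e-08) under FGF overexpression and -0.24 (adjusted p = 0.202) under SU5402. What these loci encode is not annotated in the sources used here. Of the 54406 probe sets with no symbol or several, 1856 passed the test (3.41%), 1014 higher and 842 lower, and they were not described one by one.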
